A study of Mus musculus with 15 samples.

Results

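The genes described here are 10 genes of transforming growth factor beta (TGF-beta) signalling, out of 19938 genes measured in colony-forming fibroblast-like cells (cCFU-F) grown from mouse hearts. They were taken from a list of names that was chosen with earlier results of these data known. The ligands are Tgfb1, Tgfb2 and Tgfb3, and the latent TGF-beta binding proteins are Ltbp1 and Ltbp2. The others are the receptors Tgfbr1 and Tgfbr2, the coreceptors Tgfbr3 and Eng, and the TGF-beta-induced matrix gene Tgfbi. Each of the 10 was read by a single probe set that names no other gene. Such cells are cardiac stroma able to found a colony when plated singly. By the labels, hearts came from male C57BL/6 mice aged 12 weeks, and a sort kept SCA1+ PDGFRα+ cells without CD31. There were 15 arrays, 3 in each of 5 groups. Large colonies, all untreated, were profiled at passages 5 and 15. Small colonies were profiled without treatment at passage 5 only, and under PDGF-AB, a heterodimer of platelet-derived growth factor given at 50 ng/ml, at passages 5 and 15. No untreated small-colony array of passage 15 was analysed here, so colony size and PDGF-AB cannot be told apart wherever treated small colonies are set against large ones. The labels do not say if the arrays within a group represent different cultures or different animals; p-values therefore reflect array-to-array spread, possibly technical.

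TGF-beta is secreted bound to its own propeptide, and latent binding proteins tether that complex to the matrix until it is released. Active ligand binds the type II receptor (Tgfbr2), which recruits and phosphorylates the type I receptor (Tgfbr1), and this in turn phosphorylates SMAD proteins that enter the nucleus. Betaglycan (Tgfbr3) presents ligand to the receptors, and endoglin (Eng, also CD105) is a coreceptor best known from endothelium and used as a surface marker of mesenchymal stromal cells. In the heart the pathway is known for driving fibroblasts to make matrix and to become myofibroblasts.

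All levels are log2 intensities, given with the SD over 3 arrays (n = 3) where a mean is quoted. Changes are log2 differences with the SE of a limma fit over all arrays, and adjusted p-values were corrected over 19938 genes. A gene is said to have changed where its adjusted p was below 0.05. Across genes, Pearson's r was 0.997 to 0.998 for 2 arrays from the same group and 0.958 to 0.991 otherwise. The PDGF receptor gene Pdgfrb reached 11.85, Pdgfra lay between 6.20 and 9.02, and Pecam1, which encodes CD31, lay between 4.18 and 4.66, against a lower quartile of 4.06 to 4.23 in the arrays. Ly6a, which encodes SCA1, was not analysed here. Xist, the RNA of the inactive X chromosome, lay between 8.93 and 10.88 in all arrays and 3 Y-linked genes (Uty, Kdm5d and Eif2s3y) between 2.24 and 3.40, although the cells were labelled male.

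The promoters of 5 of the genes are shown because these genes moved together or moved most. Over the 15 arrays Eng and Tgfbr2 had r = 0.96 and Ltbp1 and Ltbp2 r = 0.93, as descriptions over arrays that share groups. Tgfbi was the member that changed most with PDGF-AB. Windows run from 250 bases before to 50 after the annotated start, in RefSeq's GRCm38.p6 build. RefSeq windows were matched for 8 of the 10 genes, and Tgfb3 and Tgfbr3 had none among those used here. The windows below lie at chr2:32646345-32646644 (plus strand, Eng), chr9:116175314-116175613 (minus strand, Tgfbr2), chr17:75005279-75005578 (plus strand, Ltbp1), chr12:84876442-84876741 (minus strand, Ltbp2) and chr13:56609336-56609635 (plus strand, Tgfbi). Capitals mark the SMAD box, CAGAC or its complement GTCTG.
Eng: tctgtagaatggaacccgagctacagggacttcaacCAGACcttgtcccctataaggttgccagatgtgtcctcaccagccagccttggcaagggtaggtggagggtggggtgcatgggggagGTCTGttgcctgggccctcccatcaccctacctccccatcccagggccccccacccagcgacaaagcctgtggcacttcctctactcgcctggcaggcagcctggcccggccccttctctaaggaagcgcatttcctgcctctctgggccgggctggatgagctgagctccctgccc
Tgfbr2: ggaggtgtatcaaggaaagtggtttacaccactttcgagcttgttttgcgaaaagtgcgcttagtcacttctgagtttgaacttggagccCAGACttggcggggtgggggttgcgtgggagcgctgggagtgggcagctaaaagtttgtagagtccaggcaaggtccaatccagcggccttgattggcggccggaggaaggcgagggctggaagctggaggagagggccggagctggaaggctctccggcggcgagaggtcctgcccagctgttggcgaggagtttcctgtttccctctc
Ltbp1: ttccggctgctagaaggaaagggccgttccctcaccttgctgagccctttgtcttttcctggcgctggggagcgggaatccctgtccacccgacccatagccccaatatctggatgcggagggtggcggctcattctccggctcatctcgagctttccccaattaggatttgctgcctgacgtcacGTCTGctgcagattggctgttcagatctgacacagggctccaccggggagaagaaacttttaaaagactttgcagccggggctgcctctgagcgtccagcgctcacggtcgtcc
Ltbp2: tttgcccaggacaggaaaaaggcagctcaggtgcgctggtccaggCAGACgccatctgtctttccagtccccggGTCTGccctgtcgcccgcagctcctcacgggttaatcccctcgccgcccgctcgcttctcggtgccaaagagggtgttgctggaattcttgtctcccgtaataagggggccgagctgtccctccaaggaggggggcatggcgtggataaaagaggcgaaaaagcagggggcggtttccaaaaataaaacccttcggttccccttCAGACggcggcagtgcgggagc
Tgfbi: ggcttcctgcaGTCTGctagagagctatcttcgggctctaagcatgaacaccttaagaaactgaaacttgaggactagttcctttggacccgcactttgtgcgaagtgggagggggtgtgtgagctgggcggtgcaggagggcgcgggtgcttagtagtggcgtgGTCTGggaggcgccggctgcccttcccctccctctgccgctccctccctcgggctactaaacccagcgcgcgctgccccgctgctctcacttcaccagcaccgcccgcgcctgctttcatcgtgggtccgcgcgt
These windows hold 2 SMAD boxes in Eng, 1 in Tgfbr2, 1 in Ltbp1, 3 in Ltbp2 and 2 in Tgfbi. A SMAD box was found in the leading window of 6 of the 8 matched genes, and in 49.6% of 32851 promoter windows of the same 300-base length, so its presence is common. Tgfbr1 and Ltbp1 had 2 windows each, and the first listed was taken as leading. The second window held 1 SMAD box in Tgfbr1, whose first held 0, and 2 in Ltbp1. The GC box (GGGCGG, either strand) was found in 4 of the 8, against 35.7% of all windows. An AP-1 site (TGANTCA) was in 0 of the 8, against 7.81% of all windows. The TATA box (TATAAA, either strand) was in 1 of the 8, that of Tgfb2, against 13.6%. None of these matches overlapped a match of another motif. A match is a run of letters and was not tested as a binding site.

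**Figure D1:**
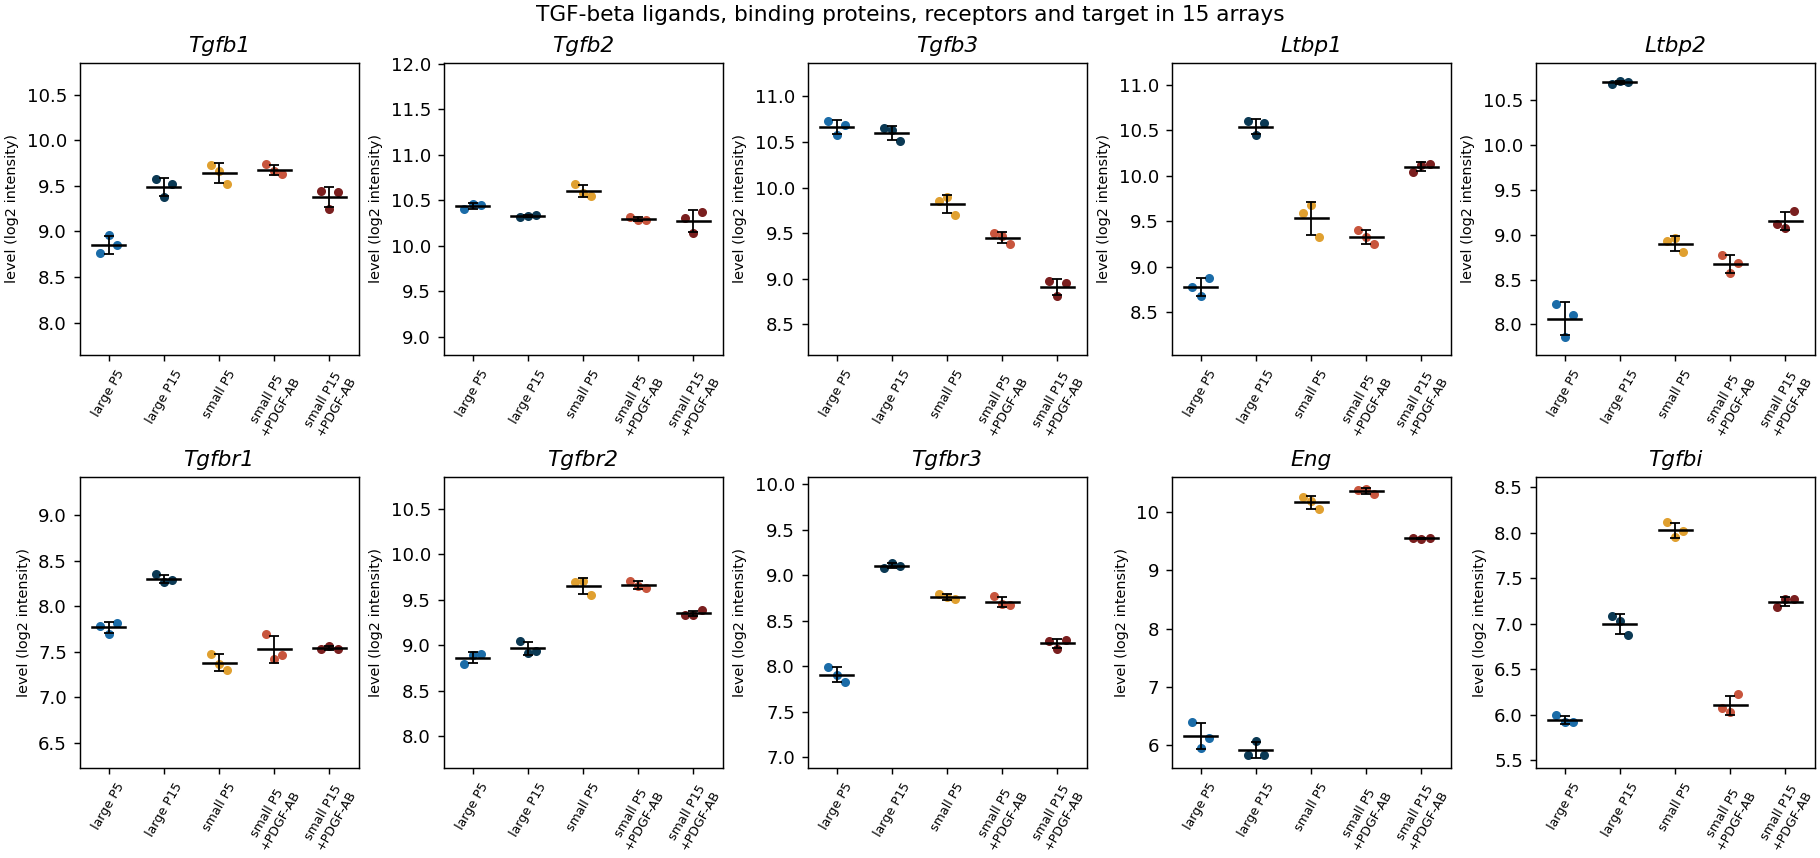
Level of each of the 10 genes (log2 intensity, vertical axis, with its own range for each gene) in the 5 groups. Points are arrays, bars are means and whiskers the SD of 3 arrays. Eng lies near 6 in all large-colony arrays and above 9.5 in all small-colony arrays.

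The members' counts differed by comparison. Between untreated large and small colonies at passage 5, 9 of 10 members differed, 2 higher and 7 lower in large colonies, where 36.2% of all genes were called (18.2% higher, 18% lower); 2 of them (Eng and Tgfbi) differed at least 2-fold, as did 3.93% of all genes. With passage in untreated large colonies 6 rose and 0 fell, against 36.1% of all genes (17.4% higher, 18.7% lower), and 4 rose at least 2-fold, against 3.77% of all genes in either direction. With passage in treated small colonies 3 rose and 5 fell, against 46% of all genes (24.6% higher, 21.4% lower), and 1 (Tgfbi) changed at least 2-fold, against 5.26%. PDGF-AB at passage 5 lowered 3 and raised 0, against 28.9% of all genes (10.7% higher, 18.2% lower), and 1 (Tgfbi) changed at least 2-fold, against 1.39%. The share called with PDGF-AB is thus near that of all genes. All 10 members had mean levels above the median of all gene means, and genes below it were called less often. With those genes left out, 6149 genes were still called for colony size and 6255 for passage in large colonies. The counts were 7003 for passage in treated small colonies and 5243 with PDGF-AB, though fewer genes were tested. The shares of all genes given here and below therefore lie under those of genes above that median. The median absolute change of the members was 0.81 for colony size against 0.14 for all genes, and 0.20 for PDGF-AB against 0.13 for all genes. These comparisons share groups of arrays and are not independent of each other. Since each array averages over a culture, fewer cells of a type and less RNA per cell cannot be told apart in any of them.

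**Figure D2:**
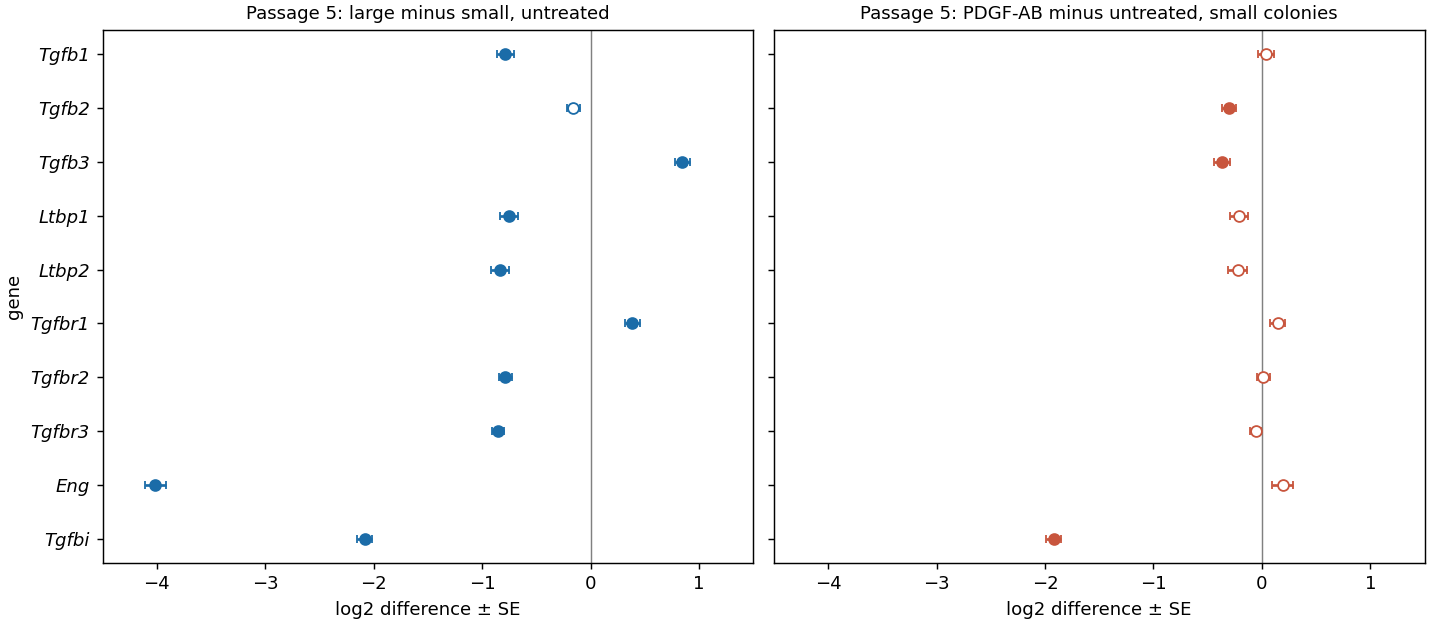
Differences at passage 5 for each of the 10 genes (log2, whiskers are the SE), between untreated large and small colonies on the left and between PDGF-AB-treated and untreated small colonies on the right. Filled points passed an adjusted p of 0.05. Eng (-4.01) and Tgfbi (-2.08) lie farthest from 0 on the left, and Tgfbi (-1.92) alone lies beyond 1 in size on the right.

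Among the ligands, Tgfb3 and Tgfb1 differed in opposite directions between untreated colony types at passage 5, and Tgfb2 varied least. Tgfb3 read 10.73, 10.58 and 10.69 in large colonies at passage 5 and 10.65, 10.63 and 10.51 at passage 15. Untreated small colonies read 9.86, 9.90 and 9.70, treated small colonies 9.50, 9.46 and 9.38, and treated small colonies at passage 15 read 8.98, 8.80 and 8.95. All large-colony arrays lay above all small-colony arrays. At passage 5 Tgfb3 was 1.8-fold higher in large than in small untreated colonies (0.84 ± 0.071, adjusted p = 5.3e-08). PDGF-AB lowered it by 0.37 (-0.37 ± 0.071, adjusted p = 8.3e-04), and it fell again with passage in treated colonies (-0.54 ± 0.071, adjusted p = 7.5e-06). In large colonies the passage difference of Tgfb3 was -0.06 (adjusted p = 0.527). By passage 15 treated small colonies stood 3.23-fold below large ones (-1.69 ± 0.071, adjusted p = 5.0e-12).

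Tgfb1, the isoform best known from fibrosis, was lowest in large colonies at passage 5, at 8.76, 8.96 and 8.85. It rose there with passage to 9.57, 9.38 and 9.52 (0.64 ± 0.077, adjusted p = 4.3e-06). Untreated small colonies read 9.73, 9.66 and 9.52 and treated ones 9.74, 9.67 and 9.63, ranges that overlap (0.04 with PDGF-AB, adjusted p = 0.75). Treated small colonies at passage 15 read 9.44, 9.25 and 9.43, a fall of 0.30 (-0.30 ± 0.077, adjusted p = 0.00389). In the order of group levels, only the step down to large colonies at passage 5 passed between neighbours (0.52, adjusted p = 2.4e-05). Treated small and large colonies differed by -0.12 at passage 15 (adjusted p = 0.213), and this difference passed when arrays were shifted to a common median (-0.21, adjusted p = 0.0413).

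Tgfb2 kept within a narrow range, with group means between 10.27 and 10.60. Its one call was a fall with PDGF-AB, from 10.67, 10.58 and 10.54 to 10.32, 10.28 and 10.28 (-0.30 ± 0.061, adjusted p = 0.00132). Between untreated large and small colonies at passage 5 it differed by -0.16 (adjusted p = 0.0529). This difference passed with cyclic loess (adjusted p = 0.0471) and without untreated small replicate 3 (0.0441). It also passed without genes below the median level (0.022) and with trend and robust moderation (0.0122). Those last settings also called treated small against large colonies at passage 5 (-0.14, 0.0368 and 0.0249), where the reported fit gave 0.0863. None of the 4 steps between neighbouring groups in its order passed in the reported fit. Tgfb2 and Tgfb3 thus fell with PDGF-AB while Tgfb1 did not pass.

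The latent TGF-beta binding proteins rose with passage in both colony types, and more in large colonies. Ltbp2, an elastic fibre protein of the LTBP family that itself does not hold latent TGF-beta, read 8.22, 7.86 and 8.11 in large colonies at passage 5 and 10.68, 10.71 and 10.71 at passage 15. This was a 6.21-fold rise (2.63 ± 0.084, adjusted p = 3.1e-13), larger in size than that of 99.6% of genes. In treated small colonies it went from 8.77, 8.57 and 8.68 to 9.12, 9.07 and 9.26 (0.48 ± 0.084, adjusted p = 1.8e-04). The difference between these passage changes was -2.16 ± 0.12 (adjusted p = 6.3e-10).

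Ltbp1, which binds latent TGF-beta and tethers it to the matrix, rose 3.39-fold in large colonies, from 8.78, 8.68 and 8.88 to 10.60, 10.44 and 10.58 (1.76 ± 0.083, adjusted p = 3.8e-11). Treated small colonies went from 9.40, 9.33 and 9.25 to 10.04, 10.12 and 10.13 (0.77 ± 0.083, adjusted p = 8.4e-07). Untreated small colonies at passage 5 read 9.59, 9.68 and 9.33 for Ltbp1 and 8.92, 8.96 and 8.81 for Ltbp2. Both genes were lower in large than in small untreated colonies at passage 5, Ltbp1 by -0.75 (adjusted p = 1.5e-06) and Ltbp2 by -0.83 (adjusted p = 5.4e-07). With PDGF-AB the differences were -0.21 for Ltbp1 (adjusted p = 0.0751) and -0.22 for Ltbp2 (adjusted p = 0.0581). Both passed without untreated small replicate 3, with adjusted p = 0.00711 for Ltbp1 and adjusted p = 0.0433 for Ltbp2, which takes the count of members called with PDGF-AB from 3 to 5.

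The 2 signalling receptors differed between colony types in opposite directions. Tgfbr1, the type I receptor kinase, read 7.78, 7.70 and 7.82 in large and 7.48, 7.36 and 7.29 in small untreated colonies at passage 5 (0.39 ± 0.071, adjusted p = 3.3e-04). Tgfbr2, the type II receptor that binds ligand, read 8.79, 8.89 and 8.90 in large and 9.69, 9.71 and 9.55 in small colonies (-0.79 ± 0.060, adjusted p = 1.7e-08). No ranges overlapped in either case. With passage in large colonies Tgfbr1 rose to 8.35, 8.26 and 8.28 (0.53 ± 0.071, adjusted p = 1.3e-05), while Tgfbr2 differed by 0.10 (adjusted p = 0.202).

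In treated small colonies it was Tgfbr2 that moved with passage, from 9.71, 9.65 and 9.63 to 9.33, 9.33 and 9.39 (-0.31 ± 0.060, adjusted p = 4.1e-04), while Tgfbr1 read 7.69, 7.42 and 7.46 and then 7.53, 7.56 and 7.53 (0.02, adjusted p = 0.872). PDGF-AB gave no call for either receptor (Tgfbr1 0.15, adjusted p = 0.139, and Tgfbr2 0.01, adjusted p = 0.893), except that Tgfbr1 passed with cyclic loess (0.21, adjusted p = 0.0259). Tgfbr1 was 0.24 lower in treated small than in large colonies at passage 5 (adjusted p = 0.0132). A fit on just the arrays of both groups did not call it (adjusted p = 0.0526), nor did fits that left out large replicate 3 (0.0540) or treated small replicate 2 (0.0772) or 3 (0.0589).

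Tgfbr3 (betaglycan) moved in opposite directions with passage in the 2 colony types. In large colonies it went from 7.99, 7.90 and 7.83 to 9.08, 9.13 and 9.11, a 2.29-fold rise (1.20 ± 0.057, adjusted p = 3.9e-11). In treated small colonies it went from 8.77, 8.68 and 8.67 to 8.27, 8.19 and 8.29, a fall of 0.46 (-0.46 ± 0.057, adjusted p = 4.4e-06). The difference of the 2 changes was -1.65 ± 0.080 (adjusted p = 1.2e-10). At passage 5 large colonies stood 0.85 below untreated small ones (-0.85 ± 0.057, adjusted p = 2.9e-09), and at passage 15 the treated small colonies stood 0.85 below large ones (-0.85 ± 0.057, adjusted p = 2.4e-09). Untreated small colonies read 8.79, 8.76 and 8.73, and the difference with PDGF-AB was -0.06 (adjusted p = 0.506). Of the 4 steps in the order of its levels, that between untreated and treated small colonies at passage 5 alone did not pass.

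Eng was the member with the widest range, and it separated the colony types. Untreated small colonies at passage 5 read 10.26, 10.18 and 10.05 in the 3 arrays, and treated small colonies 10.38, 10.39 and 10.30. Treated small colonies at passage 15 read 9.55, 9.53 and 9.55, replicates 1 and 3 having equal values. Large colonies read 6.39, 5.95 and 6.12 at passage 5 and 5.84, 6.07 and 5.82 at passage 15. No large-colony array overlapped any small-colony array.

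At passage 5 Eng was 16.1-fold lower in untreated large than in untreated small colonies (-4.01 ± 0.096 SE, adjusted p = 5.3e-15), a change larger in size than that of 99.8% of genes. The level in large colonies lay near the median of all gene means, 6.02, and the part of it that is background was not tested, so the folds depend on background. Treated small colonies were 18.4-fold above large ones at passage 5 (4.20 ± 0.096, adjusted p = 3.7e-15) and 12.4-fold above them at passage 15 (3.64 ± 0.096, adjusted p = 1.1e-14). Within the treated small colonies Eng fell by 0.81 between passages (SE 0.096, adjusted p = 2.3e-06). In large colonies the passage difference was -0.24 and did not pass (adjusted p = 0.0591), though it passed without passage 5 replicate 2 (adjusted p = 0.00811) or passage 15 replicate 2 (adjusted p = 0.0211). With all arrays it also passed with cyclic loess (adjusted p = 0.0472), without genes below the median level (0.0299) and with trend and robust moderation (0.0282). With PDGF-AB the difference was 0.19 (adjusted p = 0.147). All 3 treated arrays nevertheless lay above all 3 untreated ones, and the difference passed with cyclic loess (0.27, adjusted p = 0.0414). In the order of levels, the top step (the PDGF-AB comparison) and the bottom step (large colonies of both passages) did not pass, and the 2 steps in the middle did.

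Endothelial markers showed no step of this size. Of 10 endothelial markers 2 were higher (Tek, 0.34, and Kdr, 0.48) and 1 lower (Egfl7, -0.23) in large than in small untreated colonies, where Eng was lower, with a list median of 0.16 against 0.03 for all genes. Of all genes 36.2% were called in this comparison. The call of Egfl7 was lost without large passage 5 replicate 1 (adjusted p = 0.0528) or small passage 5 replicate 1 (adjusted p = 0.102). The mean level of the 10 markers lay between 4.90 and 4.99 in large and between 4.73 and 4.84 in small untreated colonies at passage 5. Defining genes such as Pecam1 (4.45 in large, 4.31 in small) and the vascular cadherin Cdh5 (5.01 and 4.85) stayed below the median of all gene means in every array. At passage 15 Eng was 12.4-fold higher in treated small than in large colonies. There 7 of the 10 endothelial markers were higher too, against 29.2% of all genes. The list median was 0.29 against 0.07 for all genes, but with cyclic loess only 2 were called. Among the 7 were Tek (0.42) and Pecam1 (0.31, a call lost with cyclic loess, adjusted p = 0.132). Their mean level was then 5.03 to 5.13 in treated small and 4.77 to 4.91 in large colonies, and their part in the difference of Eng was not tested.

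Markers of other cell types of the heart were read on the comparison where Eng differed most, untreated large against small colonies. Of all genes 36.2% were called there. Of 9 stromal markers 3 were higher and 4 lower in large colonies. Thy1, a surface marker of fibroblasts and mesenchymal stromal cells, had a mean of 10.33 in large but 5.11 in small colonies, opposite to Eng, while Tcf21, a transcription factor of cardiac fibroblasts, had means of 4.70 and 8.38. Of 6 pericyte markers 3 were higher, led by Rgs5 (2.92), and 2 lower, Notch3 (-1.03) and Cspg4 (-0.89). Of 6 smooth muscle markers 5 were higher, led by Myh11 (0.82), and 1 lower. Of 6 epicardial markers 1 was higher, Upk1b (0.54), and of 6 cardiomyocyte markers 1 was higher and 1, Tnnt2 (-1.62), was lower. The epicardial and cardiomyocyte counts did not exceed the share of all genes. The part of these cell types in the differences of the members was not tested.

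The genes most like Eng in pattern over the 15 arrays, among 2040 genes at or above the median level whose group means spanned at least 1, were Pdgfc (r = 0.996), Adamts12 (r = 0.989) and Tbx20 (r = 0.989). Pdgfc encodes a ligand of PDGFRα, Adamts12 a secreted metalloproteinase and Tbx20 a cardiac transcription factor. Pdgfc stood at 8.04 in large and 9.62 in small untreated colonies at passage 5. Tbx20 stood at 3.30 and 8.61. With 5 groups such values of r describe mostly the split between large and small colonies.

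**Figure D3:**
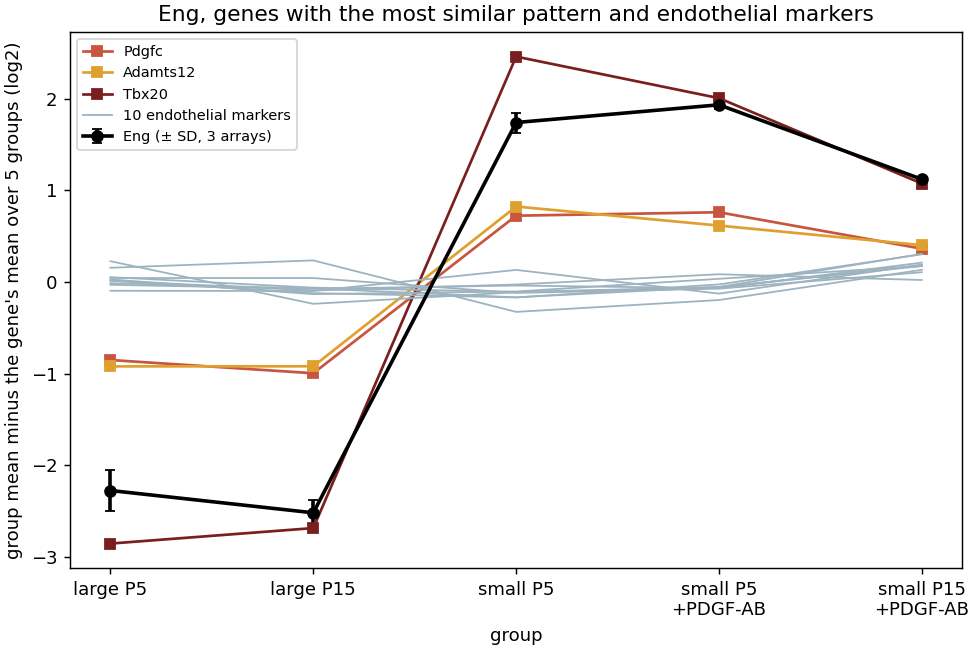
Group means of Eng (black, whiskers are the SD of 3 arrays), of the 3 genes with the most similar pattern (squares) and of 10 endothelial markers (grey lines), each as a log2 difference from the mean of that gene over the 5 groups. The large-minus-small difference of Eng in untreated colonies at passage 5 is -4.01, where the 10 endothelial markers have a median difference of 0.16 in the other direction.

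Tgfbi, which encodes a secreted adhesion protein of the matrix named for its induction by TGF-beta, was the member that fell most with PDGF-AB. Untreated small colonies read 8.11, 7.95 and 8.01, and treated small colonies at the same passage read 6.07, 6.02 and 6.22. All treated arrays lay below all untreated ones. The fall was 3.78-fold (-1.92 ± 0.070, adjusted p = 6.2e-12), larger in size than the change of 99.7% of genes. By passage 15 the treated small colonies read 7.18, 7.27 and 7.27, a rise of 1.13 from passage 5 (SE 0.070, adjusted p = 8.4e-10). They remained 0.79 below untreated small colonies at passage 5 (adjusted p = 9.0e-08).

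Large colonies read 6.00, 5.92 and 5.92 for Tgfbi at passage 5, which was 4.24-fold lower than in untreated small colonies (-2.08 ± 0.070, adjusted p = 3.6e-13). With passage they rose to 7.08, 7.03 and 6.87 (1.05 ± 0.070, adjusted p = 3.1e-09). The passage changes of both colony types were close in size, and their difference was 0.08 ± 0.099 (adjusted p = 0.546). Treated small and large colonies differed by 0.16 at passage 5 (adjusted p = 0.0862). At passage 15 treated small colonies were 0.25 higher (adjusted p = 0.00793), a call lost when the arrays were shifted to a common median (0.15, adjusted p = 0.0955). The values at passage 5 in large and in treated small colonies lay near the median of all gene means, so folds against them depend on background.

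Macrophages also express Tgfbi, and their markers were read alongside. With PDGF-AB, where 28.9% of all genes were called, 0 of 10 macrophage and leukocyte markers rose and 2 fell. These were Cd14, an endotoxin coreceptor (-1.24, adjusted p = 2.0e-09), and Cd68 (-0.23, adjusted p = 0.0308). Cd68 no longer passed with the compared arrays alone (adjusted p = 0.0814), or on leaving out replicate 1 (0.128) or 2 (0.0935) of the untreated or replicate 3 (0.166) of the treated small colonies. The list median was -0.06 against 0.02 for all genes, and its mean level was 5.29 to 5.37 in untreated and 5.15 to 5.18 in treated small colonies. Ptprc lay between 3.68 and 4.18 and Adgre1 between 3.15 and 3.58 over all arrays. Not all markers of the list were low. In untreated small colonies Lyz2 and Cd14 stood above the median of all gene means. Between untreated colony types at passage 5, 36.2% of all genes were called, and 7 of the 10 markers were not. Cd14 (-1.86) and the lysozyme gene Lyz2 (-0.68) were lower in large colonies, as Tgfbi was, and Csf1r was higher (0.31). Those 3 calls became 5 without untreated small replicate 3. Their part in the difference of Tgfbi was not tested.

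Other markers were read with PDGF-AB too, where 28.9% of all genes were called. Of 6 epicardial markers 2 fell, Upk3b (-1.58) and Upk1b (-1.01), as Tgfbi did, and 0 rose. Of 9 stromal markers 1 rose, Tcf21 (1.18), and 6 fell, among them Dcn (-0.99). Of 6 smooth muscle markers 4 rose, and of 6 pericyte markers 3 rose, led by Mcam (adjusted p = 5.5e-11), and Rgs5 fell (-0.80). Of 6 cardiomyocyte markers 2 rose, led by Tnnt2 (0.78). The epicardial and cardiomyocyte counts were near the share of all genes. The part of these cell types in the fall of Tgfbi was not tested.

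The genes most like Tgfbi were Anxa8 (an annexin, r = 0.98), Gja1 (a connexin of gap junctions, r = 0.95) and Dtx3l (a ubiquitin ligase, r = 0.94). Anxa8 went from 9.98 without to 6.86 with PDGF-AB at passage 5 and stood at 9.19 in treated small colonies at passage 15. Gja1 went from 9.33 to 7.18 and stood at 8.99.

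**Figure D4:**
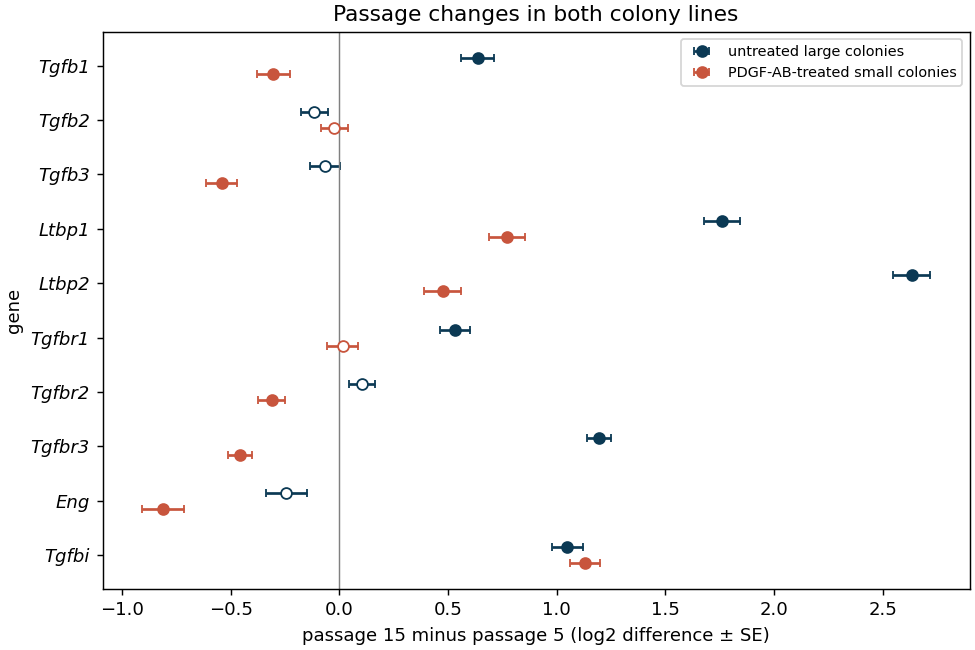
Change from passage 5 to passage 15 for each of the 10 genes (log2, whiskers are the SE) in untreated large colonies (dark) and in PDGF-AB-treated small colonies (red). Filled points passed an adjusted p of 0.05. Tgfb1 and Tgfbr3 rise in large and fall in treated small colonies, Ltbp1, Ltbp2 and Tgfbi rise in both, and Tgfbi has nearly equal changes (1.05 and 1.13).

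The difference of the passage changes, treated small minus untreated large, passed for 8 of 10 members, 0 higher and 8 lower, against 34.4% of all genes (18.6% higher, 15.9% lower), and for 2 (Ltbp2 and Tgfbr3) it was at least 2-fold, against 4.23%. Beside Ltbp2, Tgfbr3 and Ltbp1 (-0.99), it passed for Tgfb1 (-0.94), Eng (-0.57), Tgfbr1 (-0.52), Tgfb3 (-0.48) and Tgfbr2 (-0.42). The median of the members was -0.54 and that of all genes 0.07. Colony size and PDGF-AB cannot be told apart in this difference. Tgfb2 (0.09, adjusted p = 0.436) and Tgfbi did not pass.

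Treated small colonies were also set against untreated large colonies at each passage. At passage 5, 6 members were higher and 2 lower in treated small colonies, against 35.7% of all genes called (14.8% higher, 20.9% lower), and 2 (Eng and Tgfb3) differed at least 2-fold, against 3.64%. Beside Eng the higher ones were Tgfb1 (0.82), Tgfbr2 (0.80), Tgfbr3 (0.80), Ltbp2 (0.61) and Ltbp1 (0.55), and Tgfb3 was lower (-1.21). At passage 15, 3 were higher and 5 lower, against 53.4% of all genes (29.2% higher, 24.2% lower), and 3 (Eng, Tgfb3 and Ltbp2) differed at least 2-fold, against 4.64%. Eng, Tgfbr2 (0.38) and Tgfbi were higher, while Tgfb3, Ltbp2 (-1.55), Tgfbr3, Tgfbr1 (-0.76) and Ltbp1 (-0.44) were lower. Ltbp1, Ltbp2 and Tgfbr3 thus stood on opposite sides of large colonies at the 2 passages.

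Some of the chromosomes that hold the members also shifted as a whole, in some of the comparisons. The shift is given as the median difference of a chromosome's genes relative to that of all genes, among genes at or above the median level. For colony size in untreated colonies it was -0.214 on chromosome 12 (Tgfb3 and Ltbp2), -0.161 on chromosome 9 (Tgfbr2), 0.237 on chromosome 13 (Tgfbi) and 0.204 on chromosome 17 (Ltbp1). It was 0.0487 on chromosome 7 (Tgfb1), -0.0133 on chromosome 1 (Tgfb2), -0.0189 on chromosome 4 (Tgfbr1), 0.0033 on chromosome 5 (Tgfbr3) and 0.00588 on chromosome 2 (Eng). Over these 9 chromosomes the shifts ran from -0.350 to 0.248 between treated small and large colonies at passage 5 and from -0.313 to 0.334 at passage 15. With PDGF-AB they ran from -0.0686 to 0.196, with passage from -0.121 to 0.0628 in large and from -0.063 to 0.080 in treated small colonies, and for the difference of passage changes from -0.0831 to 0.174. The part of these shifts in the members' differences was not tested.

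Other genes of the pathway were read from lists. Of all genes 36.2% were called for colony size in untreated colonies and 28.9% with PDGF-AB. With passage 36.1% were called in large and 46% in treated small colonies. Of 21 measured genes of latency and activation, 4 were higher and 9 lower in large than in small untreated colonies (median 0.01, against 0.03 for all genes). The binding protein gene Ltbp4 (-2.65, adjusted p = 3.4e-15) and the matrix protease gene Mmp2 (-1.62) were lower in large colonies, and Lrrc32, whose product GARP holds latent TGF-beta on the cell surface, was higher (1.70, adjusted p = 7.8e-13). Passage in large colonies raised 7 and lowered 6 of these, with rises in Mmp2 (1.38), Ltbp4 (0.92) and Ltbp3 (0.69), so that 4 members of the LTBP family rose there. PDGF-AB raised 4 and lowered 6, with falls in the proteoglycan Dcn (-0.99), Ltbp3 (-0.80) and Mmp2 (-0.74) and a rise in Lrrc32 (0.75). Passage in treated small colonies raised 6 and lowered 9, including Plat, the tissue plasminogen activator (-0.83), and the integrin subunit Itgb5 (-0.79).

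Receptor partners and SMAD genes were called in both directions. Of 17, 7 were higher and 3 lower in large than in small untreated colonies (median 0.08), among them Smad9, a BMP-responsive SMAD (0.57), and Cd109, a TGF-beta coreceptor and inhibitor (-0.61). PDGF-AB raised 3 and lowered 3 of the 17, near the 28.9% of all genes called, with a change in Cd109 of -0.33. These 6 calls became 3 without untreated small replicate 2. Cd109 rose with passage in both colony types, by 0.56 in large (adjusted p = 1.7e-06) and by 1.30 in treated small colonies (adjusted p = 3.3e-11). Smad3, the SMAD most tied to matrix genes, was lower in treated small than in large colonies at passage 5 (-0.56) and at passage 15 (-0.72). Acvrl1 (ALK1), the type I receptor that works with endoglin in endothelium, fell with passage in treated small colonies (-0.64, adjusted p = 3.9e-05). It also fell with passage in large colonies (-0.39, adjusted p = 0.00441).

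Of 16 inhibitors and feedback genes, 6 were higher and 3 lower in large than in small untreated colonies, including the inhibitory SMAD genes Smad7 (1.01, adjusted p = 1.6e-08) and Smad6 (0.92, adjusted p = 2.9e-09). PDGF-AB raised 2 and lowered 2, near the 28.9% of all genes called, and the activin antagonist Fst rose most (1.07, adjusted p = 3.9e-08). The calls of Skil (-0.23) and Ski (0.16) were both lost without untreated small replicate 2 (adjusted p = 0.0864 and 0.0644) or treated small replicate 3 (0.0573 and 0.0568), which leaves 2 of the 4. Ski did not pass without any other single array of these groups, with a common median (0.130) or with just the arrays of both groups (0.0569). With passage 4 rose and 9 fell in large colonies (median -0.21, against -0.04 for all genes), and 3 rose and 9 fell in treated small colonies (median -0.32, against 0.05). Fst fell in both (-1.57 and -1.84). Bambi, a decoy receptor, rose in large colonies (0.91). The TGF-beta-induced inhibitor Pmepa1 fell in treated small (-0.52) and in large colonies (-0.18).

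TGF-beta response genes of fibroblasts moved both ways. Of 28 measured, 8 were higher and 13 lower in large than in small untreated colonies (median 0.05), with Postn (-3.63), Col3a1 (-2.55) and Col1a1 (-1.95) lower as Tgfbi was. Passage in large colonies raised 15 and lowered 9 (median 0.25), with rises in Col1a1 (1.43), Postn (1.36) and Col1a2 (1.32). PDGF-AB raised 10 and lowered 10 (median 0.04), with rises in the contractile genes Cnn1 (1.24) and Tagln (0.84) where Tgfbi fell. Passage in treated small colonies raised 7 and lowered 15 (median -0.23), including Cnn1 (-3.96), the matricellular gene Tnc (-2.52) and Ccn2, connective tissue growth factor (-1.25), where Tgfbi rose. The difference of passage changes was lower for 18 of the 28 and higher for 2 (median -0.41, against 0.07 for all genes). Of all genes 15.9% were lower and 18.6% higher.

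A list of 8 genes of the BMP9 and ALK1 branch, in which endoglin takes part in endothelium, held 6 genes known to respond to it (Id1, Id2, Id3, Hey1, Hey2 and Smad6) and the 2 ALK1 ligand genes Gdf2, which encodes BMP9, and Bmp10. Between untreated large and small colonies 36.2% of all genes were called. Of the 8, 6 were higher and 0 lower in large than in small untreated colonies (median 0.77, against 0.03 for all genes), where Eng was lower. The 2 not called were the ligand genes, with group means of 4.77 to 4.89 for Gdf2 and 3.52 to 3.83 for Bmp10. Among the genes called were Hey2 (1.81), Id2 (1.57), Smad6 and Id1 (0.81). PDGF-AB raised 1, Id1 (0.30, adjusted p = 0.0131), which did not pass once replicate 2 of the untreated (adjusted p = 0.0681) or replicate 1 of the treated small colonies (adjusted p = 0.0535) was left out. In treated small colonies Id1 (-1.09) and Id3 (-0.51) fell with passage and Id2 (0.77) and Smad6 (0.32) rose. With passage in large colonies, where Eng did not pass, 1 of the 8 rose and 3 fell, against 36.1% of all genes called. Hey2 fell most there (-2.70, adjusted p = 7.1e-12). At passage 15, where Eng was higher in treated small than in large colonies, 4 were lower and 1, Hey2 (1.05), was higher, against 53.4% of all genes called.

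Patterns like those of the other wide-ranging members were found by the same rule. Tgfb3 was most like Phactr1 (r = 0.99), Mcur1 (r = 0.99) and Fam98a (r = 0.98). Ltbp1 was most like the lipoprotein receptor gene Scarb1 (r = 0.98), the Hedgehog-pathway factor gene Gli3 (r = 0.98) and Fam111a (r = 0.98). Ltbp2 was most like Cda (r = 0.98), Adgra2 (r = 0.96) and Dcbld1 (r = 0.95). Tgfbr3 was most like Net1 (r = 0.99), Gnb4 (r = 0.97) and Foxd1 (r = 0.96). Among the members themselves, Eng ran opposite to Tgfb3 (r = -0.84) and Tgfbr1 (r = -0.83) over the 15 arrays. These are descriptions over 5 groups of 3 arrays.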

How the data were processed

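RNA was labelled with the Affymetrix WT kit, per the labels' protocols, and read on 1 array per sample. The deposited values are log2 intensities. RMA and limma appear, without versions, per the submitters' processing notes. Array medians lay between 5.59 and 5.72. Genome build and background settings are not given in the sources used here. Of 28853 probe sets 21789 named 1 gene, 1621 several and 5443 were unlisted. The probe set with the highest mean was kept for 999 genes with several, leaving 19938 genes. Symbols were updated by gene identifier through the GRCm38.p6 RefSeq table, which matched 21698 probe sets and missed 91.

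All 15 arrays entered a single limma 3.58.1 model of group means, run under R 4.3.3 (10 residual and 5.80 prior degrees of freedom), 2-sided, with Benjamini-Hochberg adjustment over all genes in each of 7 comparisons. The median SE was 0.0778, and precision is limited by the number of arrays. The code was tested on simulated data. The members, lists and tests were chosen with earlier results of these data known. Named genes were the members, per list and comparison up to 4 called genes, taken by lowest adjusted p, the 3 genes with the highest r to each member whose group means spanned at least 1 (predicted genes and microRNAs left out), and Pdgfra, Pdgfrb and Pecam1. Cdh5, Ptprc, Adgre1, Xist and 3 Y-linked genes were named outside this rule, after their values were seen. Replicate numbers were checked for pairing. For passage in large colonies the correlations of same-numbered arrays after subtraction of group means were 0.208, 0.0984 and 0.202, which missed the rule that each exceed 0.1, and no other comparison met it.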

Additional observations from a re-analysis of the deposited data

Results flagged for a closer look

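The passage change differed between treated small and untreated large colonies, by the test of the difference itself, for 8 of the 10 genes. The differences, treated small minus untreated large, were -2.16 for Ltbp2 (adjusted p = 6.3e-10), -1.65 for Tgfbr3 (adjusted p = 1.2e-10), -0.99 for Ltbp1 (adjusted p = 6.3e-06), -0.94 for Tgfb1 (adjusted p = 4.5e-06), -0.57 for Eng (adjusted p = 0.00394), -0.52 for Tgfbr1 (adjusted p = 8.1e-04), -0.48 for Tgfb3 (adjusted p = 0.00154) and -0.42 for Tgfbr2 (adjusted p = 0.00124). Tgfb1 and Tgfbr3 changed in opposite directions in the 2 colony types, each change passing its own test. Ltbp1 and Ltbp2 rose in both and by more in large colonies. PDGF-AB treatment and colony size cannot be told apart in these differences.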

How the results depend on the processing

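The alternatives were shifting arrays to a common median, cyclic loess, leaving out genes below the median level, averaging the probe sets of a gene, trend and robust variance moderation, the compared arrays alone, a replicate block, and leaving out each array in turn. Of the members' results under these, 930 kept their direction and side of the threshold, 24 passed newly, 5 no longer passed and 11 changed sign, the last all among differences that did not pass. The count of members called with PDGF-AB went from 3 to 5 with a common median, with cyclic loess, without genes below the median level and with trend and robust moderation, and ranged from 3 to 5 when single arrays were left out. The members gained were Ltbp1 and Ltbp2, but Tgfbr1 and Eng with cyclic loess. Genes called between treated small and large colonies at passage 15 went from 10637 to 6829 without genes below the median level, where fewer genes were tested. With PDGF-AB the sign changed for Tgfbr2 with a common median (-0.023) and for Tgfbr3 with cyclic loess (0.018), and leaving out single arrays gave -0.020 to 0.084 for Tgfb1 and -0.037 to 0.043 for Tgfbr2. With passage in treated colonies it changed for Tgfbr1 with a common median (-0.046), and leaving out single arrays gave -0.035 to 0.099 for Tgfbr1 and -0.071 to 0.045 for Tgfb2. Between treated small and large colonies at passage 15 Tgfb2 was 0.0077 with cyclic loess and -0.099 to 0.016 without single arrays. The cause of these changes was not tested. With the replicate number as a block no call of a member changed, and 7242 genes were called for passage in large colonies against 7196 without it. There 6 of 6 arrays correlated best with their own number, a hint from the data and not the design. Neighbouring steps in the order of levels passed in 22 cases, in 23 with a common median and in 26 with cyclic loess. Of the marker lists, the macrophage calls for passage in treated colonies went from 6 to 2 with a common median or cyclic loess, and the endothelial calls for the difference of passage changes from 6 to 3 and 1. The cardiomyocyte gene Ryr2, called at 0.14, turned to -0.041 between treated small and large colonies at passage 15 with cyclic loess. Averaging probe sets left the members' values as they were, since each has 1. No depth is known for array values, and levels near the lower quartile of the arrays are limited by background.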

Other observations

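Lyz2 and Cd14 were the only markers of the macrophage list called lower with passage in treated small colonies. Lyz2, a lysozyme gene, stood at 8.93 in treated small colonies at passage 5 and 5.35 at passage 15 (-3.58 ± 0.088, adjusted p = 8.3e-15), and Cd14 went from 5.92 to 5.53 (-0.39, adjusted p = 2.8e-04). Over the same step 4 of the 10 markers rose, 2 fell and 4 were not called, against 24.6% of all genes higher and 21.4% lower. Ptprc (0.24, adjusted p = 0.0189) and Tyrobp (0.24, adjusted p = 0.029) were among those that rose. The calls of Ptprc and Tyrobp were lost with arrays shifted to a common median (adjusted p = 0.0833 and 0.109) and with cyclic loess (adjusted p = 0.0742 and 0.183), among other settings. In large colonies Cd14 rose with passage (1.09, adjusted p = 3.1e-09). Lyz2 rose there too (0.27, adjusted p = 0.0221), a call lost without passage 5 replicate 3 (adjusted p = 0.0707), among other arrays.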
